A study of Mus musculus with 70 samples.

Results

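The 10 genes examined here mark T cells, natural killer (NK) cells and the granules with which both kill target cells. They are Gzma, Gzmb, Prf1, Nkg7, Ncr1, Il2rb, Klrd1, Eomes, Cd3e and Cd8a. They were taken from the 50789 gene identifiers of the count table by their symbols. The set was selected on the Cic-L-KO lung values, in which Gzma was among the larger changes, so its values in that comparison are given as a description without a test. The Cic-S-KO comparison and the brain samples were not the basis of that choice, although Cic-S-KO lung was set against the same WT samples. Earlier results of these data were known when the 10 genes were chosen, so these comparisons may not be free of selection.

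Capicua (gene Cic) represses transcription and exists in a short and a long isoform. RNA was sequenced from mice without the short isoform (Cic-S-KO), mice without the long isoform (Cic-L-KO) and WT littermates, which the submitters pooled over both lines. Whole lung came from pups at postnatal day 6, the 2 brain regions (cortex, cerebellum) from adults at 12 weeks. There were 8 samples per group, except for 7 in either Cic-S-KO brain group, for 70 samples in 9 groups. The labels state neither how the alleles were made nor from which line each WT sample came, so neither knockout could be set against the WT of its own line alone. They name no animals, so p-values measure the spread between these samples. By Y-linked genes, replicates 1 to 4 of each lung group were male and 5 to 8 were female, which made 4 of each sex per group.

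Cytotoxic lymphocytes store serine proteases called granzymes together with the pore-forming protein perforin in secretory granules, and release them onto infected or transformed cells. NK cells do this through germline-encoded activating and inhibitory receptors, and CD8 T cells through the T cell receptor, which signals by way of the CD3 chains. Both depend on interleukin 15 and interleukin 2 through a shared receptor chain and on the T-box factors Eomes and T-bet. In the newborn lung, resident and circulating lymphocytes are a small share of the tissue.

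The region just before a gene's start is where such factors often bind, and 4 of these regions are shown, those of both granzymes and perforin, the contents of the granule, and of the NK receptor gene Ncr1. Sequences are those of RefSeq on GRCm38.p6, printed along the gene's own strand. Capitals mark matches to the motifs searched, on either strand. These were TGTGGT for RUNX factors, AGGAAG for ETS factors, AGGTGTGA for T-box factors, and TGAATGAA, TGAATGGA, TCAATGAA or TCAATGGA for Capicua, and no 2 of them overlapped in the sequences shown.
Gzma, chr13:113100982-113101231, minus strand: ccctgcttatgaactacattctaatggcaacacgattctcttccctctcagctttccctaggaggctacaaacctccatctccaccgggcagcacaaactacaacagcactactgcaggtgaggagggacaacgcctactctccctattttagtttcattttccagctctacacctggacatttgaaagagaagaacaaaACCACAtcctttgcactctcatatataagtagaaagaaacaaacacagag
Gzmb, chr14:56262335-56262584, minus strand: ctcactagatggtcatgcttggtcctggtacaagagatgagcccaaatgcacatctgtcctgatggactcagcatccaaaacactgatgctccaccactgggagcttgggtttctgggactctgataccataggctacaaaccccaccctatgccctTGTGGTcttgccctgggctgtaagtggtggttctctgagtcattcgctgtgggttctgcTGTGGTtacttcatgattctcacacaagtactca
Prf1, chr10:61297586-61297832, plus strand, ending where the first annotated exon begins: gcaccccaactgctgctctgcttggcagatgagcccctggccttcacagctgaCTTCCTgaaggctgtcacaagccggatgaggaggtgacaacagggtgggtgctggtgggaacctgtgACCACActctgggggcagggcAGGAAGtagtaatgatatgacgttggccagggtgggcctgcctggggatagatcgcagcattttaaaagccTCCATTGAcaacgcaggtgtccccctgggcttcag
Ncr1, chr7:4337465-4337714, plus strand: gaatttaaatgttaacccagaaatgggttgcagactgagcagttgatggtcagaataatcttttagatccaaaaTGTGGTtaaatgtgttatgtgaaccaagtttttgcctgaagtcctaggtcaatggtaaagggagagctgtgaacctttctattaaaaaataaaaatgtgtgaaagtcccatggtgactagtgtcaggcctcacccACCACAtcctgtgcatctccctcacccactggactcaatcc

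Windows of 250 bases before the start were held for 8 of the 10 genes; Il2rb and Klrd1 had none. The RUNX hexamer occurred in 5 of the 8 windows (Gzma, Gzmb, Prf1, Nkg7 and Ncr1), and in 14% of all 32851 windows of that length. In Gzma it lay at -50, counted from the RefSeq start, on the opposite strand, so that the printed strand reads ACCACA there. Gzmb held it at -93 and -34, and Ncr1 at -176 and -41. The ETS hexamer was in 3 of the 8 windows (Prf1, Nkg7 and Cd3e) and in 29.5% of all windows. The Capicua octamer was in 1 window, that of Prf1 at -38, against 3.19% of all windows, and the T-box octamer was in that of Nkg7 at -14, against 1.12%. These are matches of letters, not measured binding.

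Lung libraries held between 17798655 and 35523037 counts, and brain libraries between 20440799 and 32548951. Lung carried the label of batch 1 and brain that of batch 2, so all comparisons were made within a tissue or between the brain regions. Cic itself stood at 138.5 ± 11.3 CPM (counts scaled to library size, TMM-normalised; SD, n = 8) in WT lung, 172.0 ± 10.5 in Cic-S-KO, beside 134.9 ± 5.62 in Cic-L-KO; these sums over isoforms cannot show the loss of 1 isoform. All 5 lung tissue markers (Sftpc, Sftpb, Ager, Cldn18 and Scgb1a1) were present in every lung group, with a summed level of 18403 to 26261 CPM per library. No row for a gene on chromosome 1 was analysed here, so Ptprc and Cd247, among others, have no value.

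All 10 genes passed the filter on low counts in lung. The filter counted libraries over all genotypes, so a gene low in WT could pass by its knockout libraries. WT libraries held 3 to 13 counts of Gzmb, 3 to 15 of Prf1, 1 to 16 of Ncr1 and 2 to 12 of Eomes. Without the filter, the log2 fold change of Gzmb in Cic-S-KO was 1.94 (adjusted p = 0.000805, edgeR). In lung the genes fell into levels that are comparable only per length of annotated exon. In WT, Gzma was highest at 1.79 CPM per kilobase, followed by Nkg7 at 1.17, Klrd1 at 0.920, Il2rb at 0.915 and Cd8a at 0.671. The lower levels, in CPM per kilobase, were 0.253 for Cd3e, 0.227 for Gzmb, 0.151 for Ncr1, 0.125 for Prf1 and 0.0684 for Eomes. In both knockouts Gzma remained at the top of this order, at 5.90 in Cic-S-KO, beside 5.60 in Cic-L-KO. Gzmb moved from the seventh place in WT to the fifth in Cic-S-KO and the sixth in Cic-L-KO. The per-length levels of Klrd1 and Il2rb in WT differed by less than the spread between samples, and those of Cd3e and Gzmb also overlapped.

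The granzymes rose in Cic-S-KO lung, Gzma about 3.29-fold and Gzmb about 3.89-fold over WT by the fitted values. Together they were 2 of the 10 genes that passed, where 15.7% of the 16695 genes tested passed in either direction and 9.99% were higher, so the share of the set that passed was near the background. At an unadjusted p under 0.05 by edgeR there were 6 of the 10, where 5178 of the 16695 genes tested were. The fitted log2 fold change was above 0 for 9 of the 10, with a median of 0.68 over the set and -0.001 over all genes tested. In Cic-L-KO lung all 10 fitted values were above 0 and their median was 0.61. In bulk tissue, fewer cells of a type and less RNA per cell cannot be told apart, and the same holds for more of either.

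**Figure D1:**
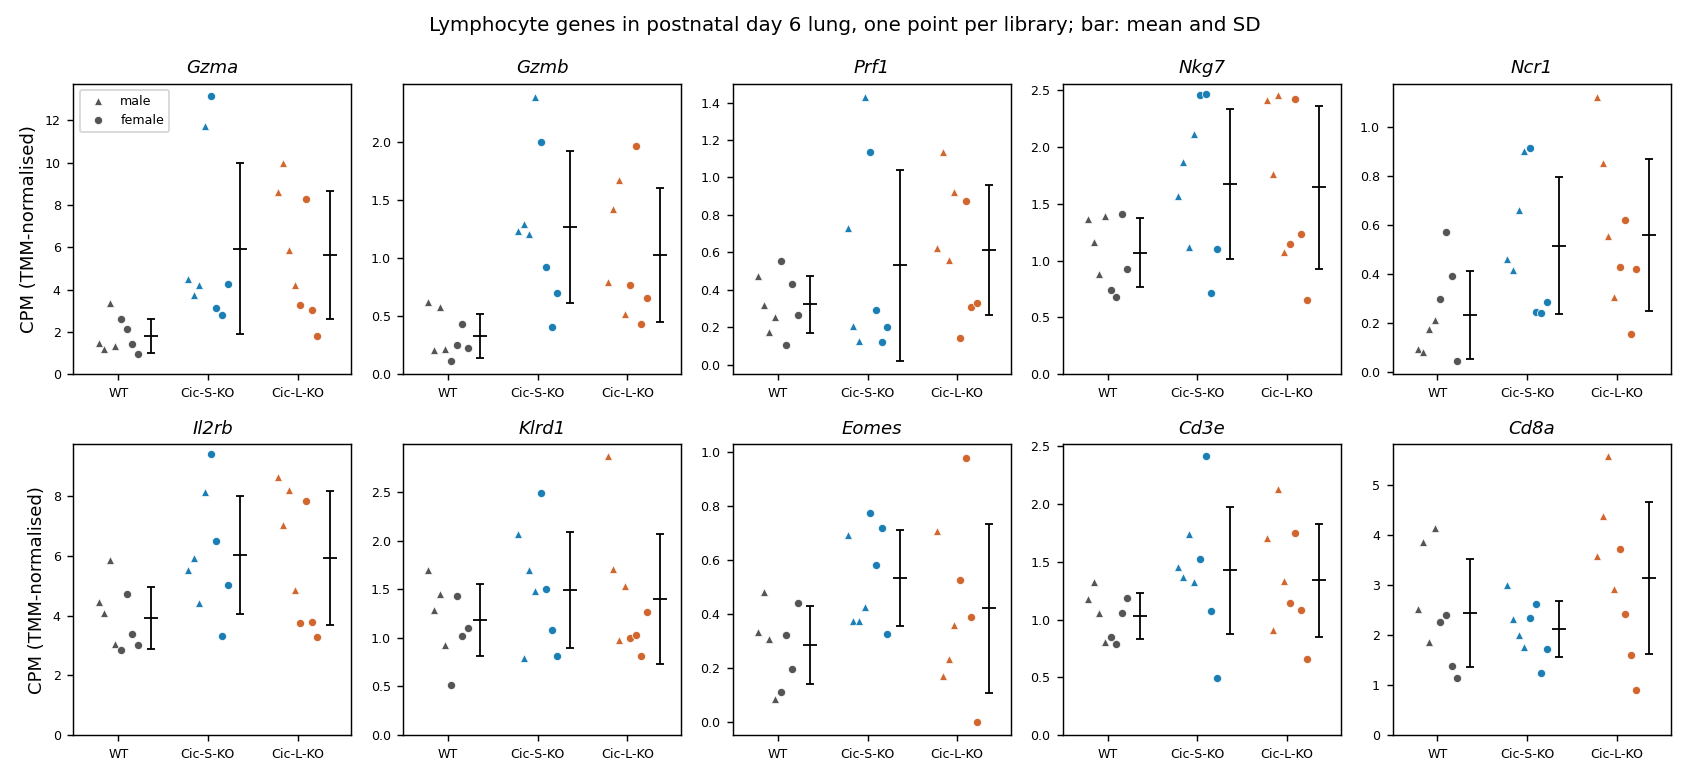
Normalised CPM of each of the 10 genes in lung (vertical axis, linear, own scale per gene) for WT, Cic-S-KO and Cic-L-KO, with 1 point per library (triangles male, circles female by Y-linked genes) and the mean and SD of 8 libraries beside them. Most knockout points lie above the WT points for Gzma and Gzmb, whereas the groups overlap widely for Klrd1 and Cd8a.

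Gzma encodes granzyme A, a tryptase-like granule protease. It lies on chromosome 13 from 113093825 to 113100981 on the minus strand (GRCm38). In WT lung the 8 libraries read 1.46, 1.20, 3.34, 1.35, 2.59, 2.11, 1.41 and 0.966 CPM in the order of their replicate numbers. In Cic-S-KO they read 4.49, 3.73, 4.22, 11.7, 13.1, 3.15, 2.79 and 4.28 CPM, and 6 of the 8 exceeded every WT library. In Cic-L-KO they read 8.62, 10.004, 5.85, 4.20, 3.29, 8.30, 3.02 and 1.78 CPM, and 5 of the 8 did so. Each of these libraries held at least 22 counts of Gzma, and the largest count was 474. Within males, the Cic-S-KO range of 3.73 to 11.7 CPM lay above the WT range of 1.20 to 3.34. Within females, the Cic-S-KO range of 2.79 to 13.1 CPM lay above the WT range of 0.966 to 2.59. The Cic-S-KO group was spread widely, with replicates 4 and 5 more than 2 times as high as any of the other 6.

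Gzma rose by 1.72 on the log2 scale in Cic-S-KO (SE 0.395), with an adjusted p = 0.0052 by edgeR's quasi-likelihood test with Benjamini-Hochberg adjustment. Without Cic-S-KO replicates 4 and 5, an alternative chosen after their Gzma values were seen to be the highest, it was 1.05 (adjusted p = 0.0333, edgeR). With 4 libraries per group, the fold change was 1.70 in males (adjusted p = 0.0678, edgeR) and 1.72 in females (adjusted p = 0.153, edgeR). In Cic-L-KO the fitted value was 1.63 (SE 0.398), the value on which the set was selected.

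Gzmb encodes granzyme B, which cleaves after aspartate and activates caspases. It lies on chromosome 14 from 56258838 to 56262260 on the minus strand, near related granzyme genes, and how the authors' counting treated reads shared between genes is not stated. WT libraries read 0.614, 0.201, 0.572, 0.211, 0.111, 0.250, 0.431 and 0.220 CPM, from 3 to 13 counts each. In Cic-S-KO they read 1.23, 1.29, 1.20, 2.38, 1.99, 0.920, 0.399 and 0.693 CPM, from 10 to 72 counts. In Cic-L-KO they read 0.791, 1.42, 1.67, 0.512, 0.762, 1.96, 0.426 and 0.656 CPM, from 10 to 38 counts. Thus 7 of the 8 Cic-S-KO libraries and 6 of the 8 Cic-L-KO libraries were above all WT libraries. Replicates 4 and 5 of Cic-S-KO were again the highest of that group. On the log2 scale Gzmb rose by 1.96 in Cic-S-KO (adjusted p = 0.0011 by edgeR, SE 0.385) and, as a description, 1.64 in Cic-L-KO (SE 0.393). It was 1.55 in Cic-S-KO without replicates 4 and 5 (adjusted p = 0.00957, edgeR).

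Prf1 encodes perforin, the pore-forming protein of the same granules, and is on chromosome 10 from 61297833 to 61304680. Its lowest, median and highest values were 0.107, 0.292 and 0.554 CPM in WT, 0.120, 0.249 and 1.43 in Cic-S-KO, and 0.143, 0.591 and 1.14 in Cic-L-KO. The Cic-S-KO median was below that of WT although its mean was above it. Only 3 Cic-S-KO libraries, replicates 1, 4 and 5, exceeded all WT libraries, against 5 in Cic-L-KO. The fitted log2 difference from WT was 0.71 in Cic-S-KO (adjusted p = 0.328 by edgeR, SE 0.483), and -0.20 without replicates 4 and 5. In Cic-L-KO it was 0.89 (SE 0.486), given without a test.

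Nkg7, on chromosome 7 from 43437073 to 43438249, encodes a granule membrane protein needed for granule release. WT libraries ranged from 0.680 to 1.41 CPM with a median of 1.04. Cic-S-KO ranged from 0.717 to 2.47 (median 1.72) and Cic-L-KO from 0.656 to 2.46 (median 1.5). The groups overlapped, with 5 Cic-S-KO and 4 Cic-L-KO libraries above every WT library and 1 Cic-L-KO library below them. Relative to WT, the fitted log2 value was 0.65 in Cic-S-KO (adjusted p = 0.102 by edgeR, SE 0.273) and 0.62 in Cic-L-KO (no test, SE 0.275).

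**Figure D2:**
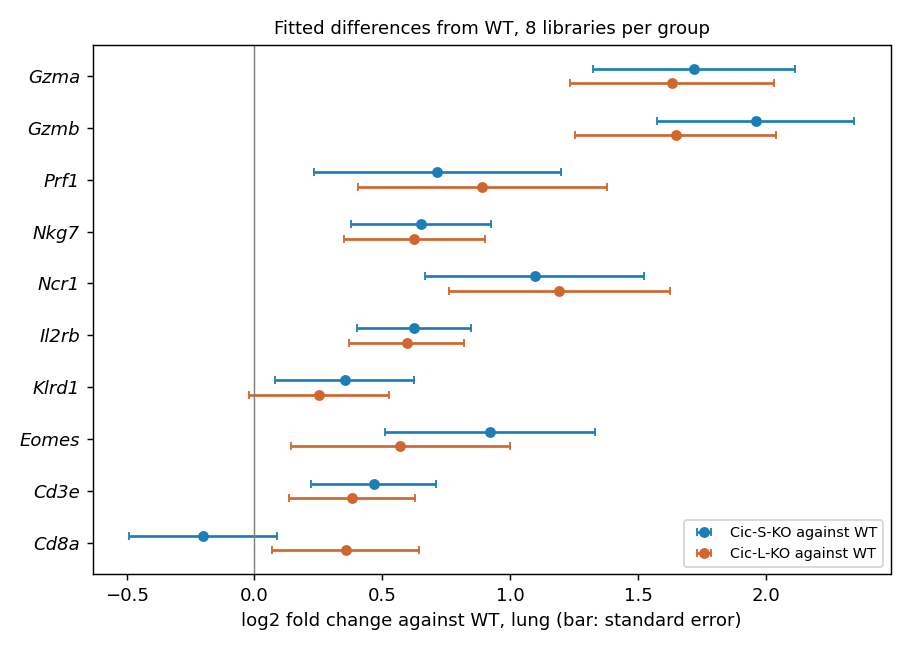
Fitted log2 fold change against WT in lung (horizontal axis) for each gene, with bars of 1 standard error, for Cic-S-KO and Cic-L-KO, 8 libraries per group. Gzma and Gzmb lie at 1.63 to 1.96 in both knockouts, the other genes lie nearer 0, and Cd8a is the only point below 0, at -0.20 in Cic-S-KO.

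Ncr1 encodes NKp46, an activating receptor of NK cells, on chromosome 7 from 4337724 to 4345164. Lowest, median and highest values were 0.0439, 0.194 and 0.573 CPM in WT, 0.239, 0.438 and 0.914 in Cic-S-KO, and 0.155, 0.493 and 1.12 in Cic-L-KO. The groups overlapped, and 3 libraries of each knockout were above all WT libraries. Against WT the fitted difference in log2 was 1.09 in Cic-S-KO (adjusted p = 0.0783 by edgeR, SE 0.426) and 1.19 in Cic-L-KO (no test, SE 0.431). In males the Cic-S-KO value was 2.05 (adjusted p = 0.0466, edgeR) and in females it was 0.40 (adjusted p = 0.783, edgeR); in Cic-L-KO the values were 2.30 in males, 0.26 in females. Whether the sexes differ was not tested. WT replicate 6, a female, held the highest WT value, and without it the Cic-S-KO value was 1.43 (adjusted p = 0.0313, edgeR).

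Il2rb encodes the beta chain of the interleukin 2 and interleukin 15 receptors and is on chromosome 15 from 78479256 to 78495271. WT libraries spanned 2.85 to 5.85 CPM (median 3.73), Cic-S-KO 3.31 to 9.42 (median 5.73) and Cic-L-KO 3.28 to 8.66 (median 5.96). In each knockout, 4 of 8 libraries were above all WT libraries and none was below. The log2 fold change in Cic-S-KO was 0.62 (SE 0.223) and lay close to the threshold, at an adjusted p of 0.0561 by edgeR. It passed under DESeq2 (0.615, adjusted p = 0.0311), with only the compared genotypes in the edgeR fit (adjusted p = 0.0371) and with Y-linked expression as a covariate (adjusted p = 0.0417, edgeR). Without Cic-S-KO replicates 4 and 5, Il2rb was 0.37 above WT on the log2 scale (adjusted p = 0.271, edgeR). In Cic-L-KO the value was 0.59 (no test, SE 0.224).

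Klrd1 encodes CD94, which pairs with NKG2 receptors, and is on chromosome 6 from 129591782 to 129598775. Its WT values ran from 0.517 to 1.70 CPM (median 1.19), those of Cic-S-KO from 0.788 to 2.49 (median 1.49) and those of Cic-L-KO from 0.813 to 2.87 (median 1.15). The 3 groups overlapped over most of their range. The fitted log2 ratio to WT was 0.35 in Cic-S-KO (adjusted p = 0.398 by edgeR, SE 0.271), with a 95% interval from -0.18 to 0.88, and 0.25 in Cic-L-KO (no test, SE 0.275).

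Eomes encodes the T-box factor eomesodermin, which is needed for mature NK cells and CD8 memory cells, and is on chromosome 9 from 118478212 to 118486132. An antisense gene, Gm33460, overlaps its end, and whether counting used strand is not stated, but Gm33460 held only 116 counts over all 70 samples. In lung, Eomes ran from 0.0845 to 0.482 CPM in WT (median 0.315), from 0.326 to 0.775 in Cic-S-KO (median 0.503) and from 0 to 0.979 in Cic-L-KO (median 0.373). The library at 0 was Cic-L-KO replicate 8. Its fitted log2 difference from WT was 0.92 in Cic-S-KO (adjusted p = 0.123 by edgeR, SE 0.410) and 0.57 in Cic-L-KO (no test, SE 0.428).

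Cd3e and Cd8a are the T cell genes of the set. Cd3e, a signalling chain of the T cell receptor complex on chromosome 9 from 44998740 to 45009627, ran from 0.787 to 1.32 CPM in WT, 0.489 to 2.42 in Cic-S-KO, beside 0.656 to 2.13 in Cic-L-KO, with medians of 1.06, 1.41 and 1.24. Although 6 Cic-S-KO libraries were above all WT libraries, 1 was below them. Its log2 ratio to WT was 0.47 in Cic-S-KO (adjusted p = 0.195 by edgeR, SE 0.244) and 0.38 in Cic-L-KO (no test, SE 0.247). The antisense gene Gm48719 within Cd3e held 44 counts in all 70 samples.

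Cd8a, the alpha chain of the CD8 coreceptor, is on chromosome 6 from 71373427 to 71379173. It ran from 1.14 to 4.14 CPM in WT (median 2.33), 1.24 to 2.99 in Cic-S-KO (median 2.15) and 0.890 to 5.57 in Cic-L-KO (median 3.25). The Cic-S-KO range lay inside that of WT. Its fitted log2 ratio to WT was -0.20 in Cic-S-KO (adjusted p = 0.677 by edgeR, SE 0.289, 95% interval -0.77 to 0.36) and 0.36 in Cic-L-KO (no test, SE 0.286). Among females alone the Cic-S-KO value was 0.13 (adjusted p = 0.903, edgeR). The fitted Cic-S-KO minus Cic-L-KO value was -0.56 (SE 0.288) for Cd8a, while for the other 9 genes it lay between -0.18 and 0.35; these differences were not tested, as the Cic-L-KO samples had served to choose the genes.

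No gene of the set had 2 groups without overlap over all 8 libraries, where 1.84% of genes tested were free of overlap between Cic-S-KO and WT and 0.857% between Cic-L-KO and WT. Within males, 4 of the 10 genes (Gzma, Gzmb, Ncr1 and Cd3e) had Cic-S-KO and WT ranges that did not meet, against 11.9% of all genes tested. Within females, Gzma was the single such gene, against 10.1% of all genes. For Cic-L-KO the numbers were 3 in males (Gzma, Prf1 and Ncr1), beside 6.61% of all genes, and 0 in females, beside 8.36%. As a description, 2 of the 10 genes (Gzma and Gzmb) were past the threshold in Cic-L-KO, where 4.89% of all genes tested were and 2.62% were higher; as the set was selected on this comparison, nothing is read from that count.

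The samples also showed which genes varied together within a genotype. After each genotype's mean log2 CPM (prior count 2) was removed, each pair of the 10 genes was compared over the 24 lung libraries, along with Coro1a (a gene of all leukocytes), Hbb-bs (a red blood cell gene) and the total count. Over these 75 relations, 15 passed a two-sided permutation test with Benjamini-Hochberg adjustment. They were 10 of the 45 pairs and 5 of the 10 relations with Coro1a, all positive, and none with Hbb-bs or the total count, of which 2 and 0 of 10 had an unadjusted p under 0.05 in the same permutation test. Without the 2 farthest libraries of each relation, only 2 of the 75 passed. By Spearman's rho, Eomes with Cd3e, Nkg7 with Cd8a and Gzma with Coro1a did not pass (permutation test, adjusted p = 0.0686, 0.107 and 0.0845). Ncr1 with Il2rb passed by rho only (permutation test, adjusted p = 0.0494).

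The highest correlation was between Gzma and Il2rb, with Pearson's r = 0.799 (permutation p = 4e-05, adjusted p = 0.003) and Spearman's rho = 0.794 (permutation p = 7e-05, adjusted p = 0.00262). Without the 2 libraries farthest from the Gzma median, r was 0.741. Within single genotypes of 8 libraries it was 0.494 in WT, 0.815 in Cic-S-KO, beside 0.922 in Cic-L-KO. Gzmb and Il2rb followed with r = 0.758 (permutation p = 8e-05, adjusted p = 0.003; rho 0.751, permutation p = 0.00013), and r = 0.720 without the 2 farthest libraries. Nkg7 and Il2rb had r = 0.736 (permutation p = 0.00035, adjusted p = 0.00656; rho 0.699, permutation p = 0.00079), and r = 0.611 without the 2 farthest. Within single genotypes of 8 libraries r was -0.169 for this pair in WT, 0.925 in Cic-S-KO, beside 0.940 in Cic-L-KO, and the difference between genotypes was not tested.

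Gzma also varied with Ncr1 at r = 0.696 (permutation p = 0.00024, adjusted p = 0.006; rho 0.771, permutation p = 6e-05), which was 0.614 without the 2 farthest libraries. The T cell gene Cd3e varied with Nkg7 (r = 0.634, permutation p = 0.00325, adjusted p = 0.0238; rho 0.643, permutation p = 0.00283; 0.553 without the 2 farthest) rather than with Gzma (r = 0.187, permutation p = 0.441, adjusted p = 0.58; rho 0.117, permutation p = 0.611; 0.179 without the 2 farthest). Klrd1 passed with no other gene of the set. The difference between these correlations was not tested, and values below 1 CPM carry more counting noise, which lowers r.

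**Figure D3:**
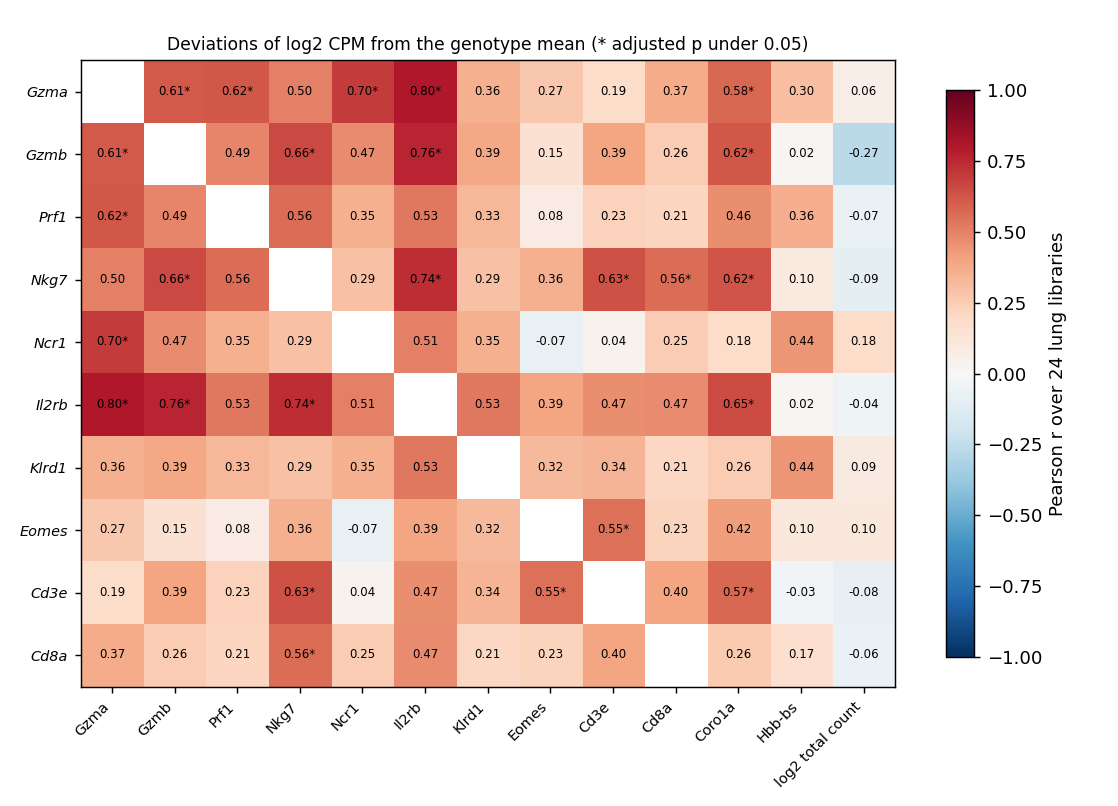
Pearson's r over 24 lung libraries between deviations of log2 CPM from the genotype mean, for each pair of the 10 genes and for each gene with Coro1a, Hbb-bs and the log2 total count; colour runs from -1 (blue) to 1 (red) and a star marks an adjusted permutation p under 0.05. Il2rb has its 3 highest values with Gzma, Gzmb and Nkg7, and the columns of Hbb-bs and of the total count hold no star.

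Among the other 14383 genes with a mean of at least 1 CPM in lung, those whose deviations were most like those of Gzma over the 24 libraries were all class I histocompatibility genes, which present peptides to CD8 T cells or are read by NK receptors. They were H2-Q4 (r = 0.829), H2-K1 (0.811), H2-Q6 (0.799), H2-M3 (0.798) and H2-Q7 (0.797), given as a ranking without a test. No r without the farthest libraries is given for them, so a few libraries may carry the likeness. These genes are near-identical copies in part, so how reads were split among them is uncertain. H2-K1 ran from 194.7 to 570.3 CPM in WT, 279.7 to 958.7 in Cic-S-KO, beside 253.4 to 708.9 in Cic-L-KO. H2-Q6 ran more widely, from 7.22 to 69.0 CPM in WT, 9.01 to 146.5 in Cic-S-KO, beside 11.4 to 122.4 in Cic-L-KO. The WT medians were 252.7 CPM for H2-K1 and 12.5 for H2-Q6, far below the highest WT library. For both genes, 3 of the 8 libraries of each knockout were above all WT libraries. The genes most like Cd3e were Ros1 (r = 0.821), Fam241b (0.800), Gm2a (0.754), Ipcef1 (0.754) and Cd3g (0.743), the last a chain of the same receptor complex.

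Other genes of the pathway were read from 6 lists, without the 10 genes above, and no gene of these lists was lower than WT past the threshold in either knockout lung by edgeR. Over all 16695 genes tested, 9.99% were higher past the threshold in Cic-S-KO lung and 2.62% in Cic-L-KO lung. At an unadjusted p under 0.05 by edgeR, in either direction, there were 5178 and 3400 of them. The counts for lists and markers below stand beside these background numbers. By DESeq2, 1 gene of the T cell list was lower in Cic-S-KO and 1 of the granule list in Cic-L-KO. Of 21 tested genes of the T cell receptor complex and T cell lineage, 4 were higher in Cic-S-KO (Trbc1, Lat, Ikzf3 and Trdc; Ikzf3 and Trdc were named after their values were seen) and 3 in Cic-L-KO (Trbc1, Lat and Thy1), with list medians of 0.13 and 0.27. Trbc1, a constant segment of the T cell receptor beta chain, ran from 1.27 to 2.7 CPM in WT, 1.91 to 3.73 in Cic-S-KO, beside 1.66 to 5.10 in Cic-L-KO. It rose by 0.67 on the log2 scale in Cic-S-KO (adjusted p = 0.0273 by edgeR, SE 0.207) and by 0.82 in Cic-L-KO (adjusted p = 0.0199 by edgeR, SE 0.208). The Trbc1 call in Cic-S-KO was lost without replicates 4 and 5 (0.63, adjusted p = 0.0652, edgeR), and without WT replicate 5 or 8 or Cic-S-KO replicate 3 (adjusted p from 0.0536 to 0.0616, edgeR). That in Cic-L-KO was lost without Cic-L-KO replicate 3 (adjusted p = 0.0536, edgeR). Reads of Trbc1 may be shared with the near-identical Trbc2. Lat, the adaptor beneath the receptor, rose by 0.48 (adjusted p = 0.0159 by edgeR, SE 0.135) and 0.49 (adjusted p = 0.0342 by edgeR, SE 0.136). In Cic-L-KO the Lat call was lost without the count filter (adjusted p = 0.0775, edgeR), and without WT replicate 1, 2, 4, 5 or 6 or Cic-L-KO replicate 3, 4, 5 or 6 (adjusted p from 0.0574 to 0.0772, edgeR). The Thy1 call there was lost without WT replicate 1, 2, 5 or 8 or Cic-L-KO replicate 3, 5 or 6 (adjusted p from 0.0503 to 0.0768, edgeR).

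Of 13 tested NK receptors and transcription factors, 6 rose in Cic-S-KO (list median 0.86) and 0 in Cic-L-KO (list median 0.33). In Cic-L-KO, 4 of them had an unadjusted p under 0.05 by edgeR, as did 3400 of all 16695 genes tested there. By DESeq2, 1 of the 13 passed. Tbx21, which encodes T-bet, the partner of Eomes, ran from 0.0401 to 0.520 CPM in WT, 0.422 to 0.920 in Cic-S-KO, beside 0.0468 to 0.957 in Cic-L-KO. It rose by 1.19 in Cic-S-KO (adjusted p = 0.0286 by edgeR, SE 0.370), with 7 of 8 libraries above WT, and stood at 0.45 in Cic-L-KO (adjusted p = 0.556 by edgeR, SE 0.396). The Tbx21 call was lost without replicates 4 and 5 (1.16, adjusted p = 0.0582, edgeR) and without WT replicate 2, 4 or 6 or Cic-S-KO replicate 6. Tyrobp, the signalling adaptor of several NK receptors, and Itgam, the integrin CD11b, rose by 0.87 (adjusted p = 0.000164 by edgeR, SE 0.135) and 1.18 (adjusted p = 0.0025 by edgeR, SE 0.247). Both are also expressed by macrophages and neutrophils. The receptor gene Klra8 did not pass the count filter in lung and was not tested. It read 0 in all 8 libraries of each knockout lung and reached 0.189 CPM at most in WT, which is few counts. As it did not read 0 throughout either knockout cortex, no loss is read from the lung zeros.

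Of 10 tested genes of granule contents and exocytosis, 3 rose in Cic-S-KO (Srgn, Stxbp2 and Stx11; list median 0.18) and 0 in Cic-L-KO (median 0.083), where 4 had an unadjusted p under 0.05 by edgeR and 1 was higher by DESeq2. Srgn, the proteoglycan core of the granule matrix in lymphocytes and myeloid cells, rose by 0.44 in Cic-S-KO (adjusted p = 0.000234 by edgeR, SE 0.0724). Of 12 tested cytokines and cytokine receptors, 4 were higher in Cic-S-KO (median 0.37) and 2 in Cic-L-KO (median 0.26). Il21r, the interleukin 21 receptor, was called in both, at 0.89 (adjusted p = 0.0015 by edgeR, SE 0.179) and 0.69 (adjusted p = 0.0245 by edgeR, SE 0.181). Il2ra, the alpha chain that joins Il2rb in the interleukin 2 receptor, rose by 0.98 in Cic-L-KO (adjusted p = 0.0321 by edgeR, SE 0.271) and stood at 0.47 in Cic-S-KO (adjusted p = 0.251 by edgeR, SE 0.274). The Cic-L-KO call of Il2ra was lost with only the compared genotypes in the fit (adjusted p = 0.0589, edgeR), and without WT replicate 1, 4, 6 or 7 or Cic-L-KO replicate 3 or 6 (adjusted p from 0.0507 to 0.095, edgeR). That of Il21r was lost without WT replicate 1 or 5 or Cic-L-KO replicate 6 (adjusted p from 0.0558 to 0.0611, edgeR).

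Among 11 tested lymphocyte chemokines and their receptors, 7 rose in Cic-S-KO (median 0.71) and 0 in Cic-L-KO (median 0.27), where 4 had an unadjusted p under 0.05 by edgeR and 0 passed by DESeq2. Ccl3, a chemokine made by activated NK cells, T cells and macrophages, ran from 0.211 to 0.616 CPM in WT and from 0.994 to 5.81 in Cic-S-KO, without overlap. It rose by 2.10 (adjusted p = 0.00076 by edgeR, SE 0.391). In Cic-L-KO it ran from 0.171 to 1.29 CPM. Ccr2, a chemokine receptor of lymphocytes and monocytes, rose by 0.69 in Cic-S-KO (adjusted p = 0.00086 by edgeR, SE 0.130).

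Of 13 tested genes of the interferon gamma response, 1 rose in Cic-S-KO (Irf8, 0.45, SE 0.0982, edgeR adjusted p = 0.003), beside 0 in Cic-L-KO, where 5 had an unadjusted p under 0.05 by edgeR and 1 passed by DESeq2. All 13 fitted values were above 0 in both knockouts, with medians of 0.55 in Cic-S-KO, beside 0.83 in Cic-L-KO. Over all genes tested, 49.8% and 49.7% were above 0. The list medians are given beside an all-gene median of -0.001 in either comparison and say nothing particular of a list.

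Markers of other blood cells were also read in lung. All 5 tested genes of leukocytes in general were higher in Cic-S-KO, and their summed level was 177.9 to 267.8 CPM in WT, 261 to 510.3 in Cic-S-KO, beside 216.9 to 306 in Cic-L-KO, where 2 of the 5 (Coro1a and Cd52) were higher. All 6 neutrophil markers were higher in Cic-S-KO, with sums of 26.4 to 129.6 CPM in WT, 58.1 to 257.5 in Cic-S-KO, beside 32.8 to 148.3 in Cic-L-KO. Macrophage markers were higher for 4 of 5 in Cic-S-KO and 1 of 5 in Cic-L-KO, with sums of 152.7 to 200.7, 225.5 to 380.5 and 193.4 to 231.8 CPM. For B cells 3 of 5 were higher in Cic-S-KO, beside 0 in Cic-L-KO (0 there at an unadjusted p under 0.05 by edgeR and 0 by DESeq2), with sums of 26.8 to 52.4, 55.8 to 76.1 and 23.5 to 71.8 CPM. Of 5 mast cell and basophil markers 1 was higher in Cic-S-KO (Cpa3), and of 3 tested markers of type 2 innate lymphoid cells 1 was higher in Cic-L-KO (Areg).

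The T cell markers Cd3d, Cd3g, Trac, Trbc2 and Lck summed to 9.76 to 19.99 CPM in WT, 11.4 to 21.6 in Cic-S-KO, beside 12.5 to 28.6 in Cic-L-KO. None of them passed, with 0 and 3 of the 6 listed genes, Cd3e included, at an unadjusted p under 0.05 by edgeR and 0 called by DESeq2 in each. Of 5 tested NK markers, members of the set included, 2 were higher in Cic-S-KO (Gzma and Klrb1c, the latter by 1.02, adjusted p = 0.0459 by edgeR, SE 0.350), and Klrb1c stood at 0.51 in Cic-L-KO (adjusted p = 0.454 by edgeR, SE 0.369). The NK markers outside the set (Klrb1c, Klre1 and Klra8) summed to 0.241 to 0.614 CPM in WT, 0.373 to 1.11 in Cic-S-KO, beside 0.234 to 1.37 in Cic-L-KO. The 5 red blood cell genes did not pass in either knockout (0 at an unadjusted p under 0.05 by edgeR, 0 by DESeq2), and their sums overlapped between all groups. The part of any of these cells in the levels of the 10 genes was not tested.

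**Figure D4:**
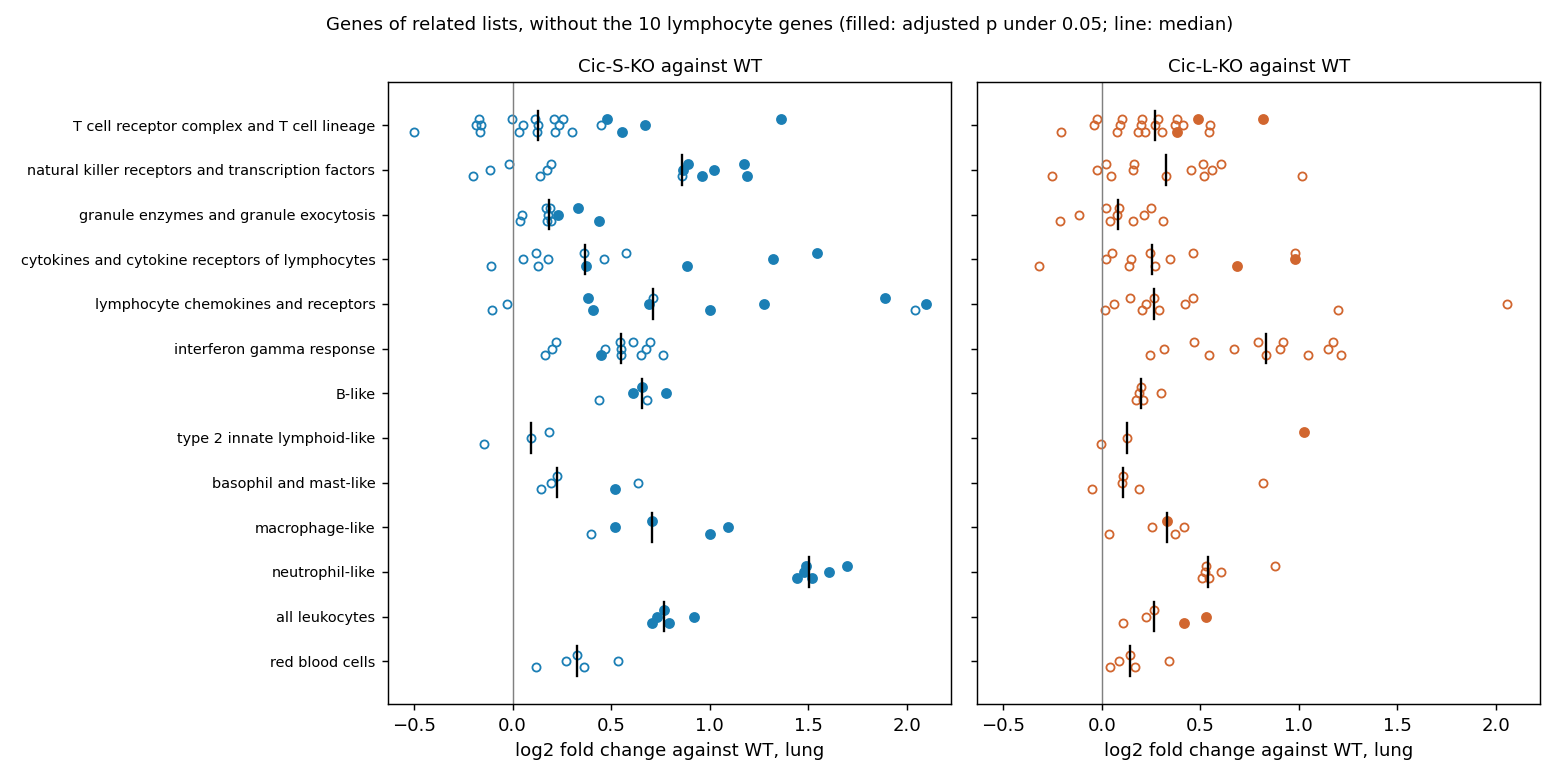
Log2 fold change against WT in lung for genes of the 6 pathway lists and of 7 blood cell marker lists (1 row each, the 10 lymphocyte genes left out), in Cic-S-KO on the left and Cic-L-KO on the right; filled points have an adjusted p under 0.05 by edgeR, open points do not, and a vertical line marks the list's median. Filled points in Cic-S-KO are densest among neutrophil, macrophage, general leukocyte and chemokine genes, and the interferon gamma row has a median of 0.83 in Cic-L-KO with no filled point.

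In the brain at 12 weeks, 9 of the 10 genes did not pass the filter on low counts in either region, with 0 to 13 counts per library. Tested without that filter, 1 of them passed, Cd8a in Cic-L-KO cerebellum (log2 ratio 3.49, adjusted p = 0.0181 by edgeR), on 22 counts over 8 libraries against 1 count in WT, with 5 of the 8 libraries above all WT libraries. The exception was Eomes, which in cerebellum marks unipolar brush cells, excitatory interneurons of the granular layer, so that its level there is no measure of lymphocytes. In cerebellum it ran from 16.9 to 54.6 CPM in WT (median 39.4), from 10.6 to 45.7 in Cic-S-KO (median 25.9) and from 11.5 to 38.8 in Cic-L-KO (median 30.6). The groups overlapped, although 3 Cic-S-KO and 2 Cic-L-KO libraries were below all WT libraries. The log2 ratio to WT was -0.62 in Cic-S-KO (adjusted p = 0.291 by edgeR, SE 0.348) and -0.50 in Cic-L-KO (adjusted p = 0.311 by edgeR, SE 0.332). Here 8.23% and 21.5% of genes tested passed.

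In cortex, Eomes was low, at 0.0788 to 1.62 CPM in WT, 0.165 to 2.49 in Cic-S-KO, beside 0.0374 to 1.57 in Cic-L-KO. Expressed as log2 relative to WT it was 1.07 in Cic-S-KO (adjusted p = 0.383 by edgeR, SE 0.697) and -0.48 in Cic-L-KO (adjusted p = 0.643 by edgeR, SE 0.760), and the latter became 0.16 without WT replicate 7, the highest WT library. In cortex 6.53% and 43.2% of genes tested passed. Set against each other in 1 fit, the effects in cortex and cerebellum differed by 1.72 for Eomes in Cic-S-KO (SE 0.796, unadjusted p = 0.0372, edgeR adjusted p = 0.224) and by 0.055 in Cic-L-KO (adjusted p = 0.98 by edgeR, SE 1.05). Il2rb, which passed the filter over both regions together, differed by -1.29 and -1.10 (adjusted p = 0.268 and 0.221, edgeR). For these differences 4.5% and 23.0% of genes tested passed. The fit took the 46 brain libraries as separate, although both regions may come from the same mice, which the labels do not state. The library names of both Cic-S-KO brain groups skip the same number. No gene of the set passed under any of 3 alternatives, 1 of which blocked on same-numbered libraries of both regions.

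**Figure D5:**
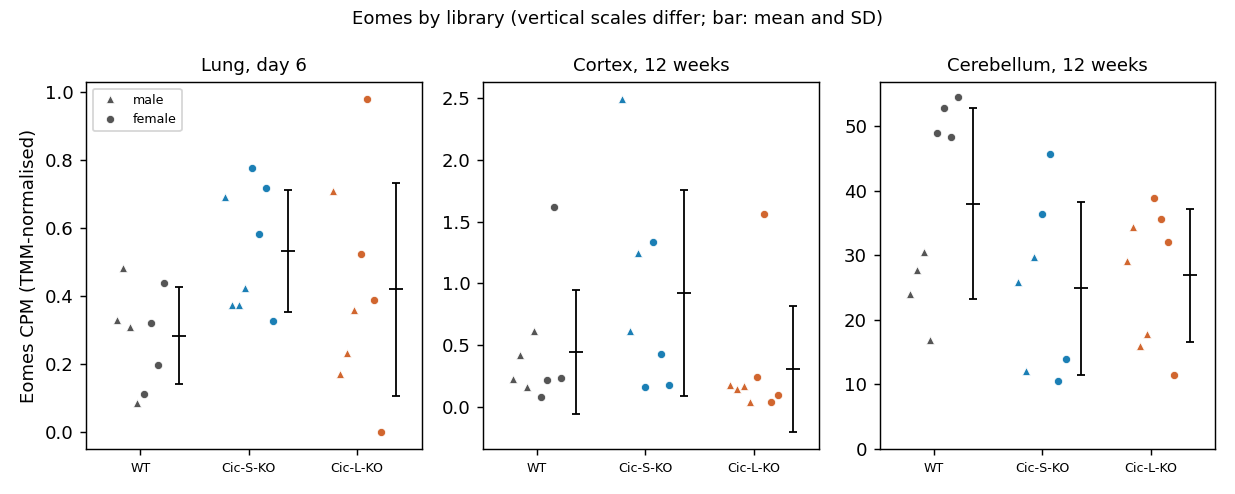
Eomes in CPM (vertical axis, linear, with a different scale in each panel) for pup lung and the adult brain regions, 1 point per library (triangles male, circles female by Y-linked genes) with mean and SD of 7 or 8 libraries. Values stay below 1 in lung and below 2.5 in cortex, while cerebellum ranges from 10.6 to 54.6.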

How the data were processed

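Total RNA from flash-frozen mouse tissue was sequenced as polyA-selected libraries, per the labels' protocols. The authors deposited raw counts per gene for 70 samples; the submitters' processing notes name STAR 2.7 and GRCm38.p6, and the counting program and use of strand are not given in the sources used here. Of 50789 identifiers 50639 matched GENCODE M21 (GRCm38) when versions were ignored. CPM and totals cover the rows analysed. Among 238 within-group pairs of libraries none was identical (chi-square per degree of freedom at least 4.17).

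Counts were tested with edgeR 4.0.16 (R 4.3.3): filterByExpr, TMM, robust quasi-likelihood fit over 3 genotypes per tissue, Benjamini-Hochberg over all genes tested, threshold 0.05. Correlations used 100000 permutations within genotype. Fits and permutations were tested on simulated data. The 10 genes, the lists and the alternatives were chosen with earlier results of these data known. All 10 genes were named, up to 3 genes per list with the smallest p in lung, and the 5 genes most like Gzma and Cd3e. A gene that this rule names is not reported here. Ptprc was planned for the correlations; Coro1a, next in its list, took its place after the data were seen. Alternatives were DESeq2 1.42.0, RLE normalization, a floor of 50 mean counts, dropping the filter, a fit without robust settings, only the compared genotypes, a Y-linked covariate, replicate blocks, leaving out each library, and, added after seeing the data, single sexes and leaving out Cic-S-KO replicates 4 and 5.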

Additional observations from a re-analysis of the deposited data

Results flagged for a closer look

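Over 36 groups of 7 or 8 values with enough counts, 3 had 1 library standing apart from the rest by Dixon's test, and chance alone flags about 1 in 20, or 1.8 of these groups. In Cic-L-KO lung, Klrd1 stood at 2.87 CPM in replicate 1, and the nearest other library was at 1.71. In WT cortex, Eomes stood at 1.62 CPM in replicate 7, against 0.615 in the next library. In Cic-L-KO cortex, Eomes stood at 1.57 CPM in replicate 6, against 0.241 in the next.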

How the results depend on the processing

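The number of the 10 genes past the threshold in Cic-S-KO lung stayed at 2 or 3 without any 1 library and was 2 without Cic-S-KO replicates 4 and 5. It was 1 with a mean of at least 50 counts, where fewer of the 10 genes were tested, and 0 among females, with fewer samples. In Cic-L-KO lung it was 1 with a mean of at least 50 counts, 0 among males and 0 among females. The replicate block gave 3 in Cic-S-KO lung, adding Il2rb (adjusted p = 0.0311, edgeR). Between genotypes, deviations of same-numbered libraries correlated on average at 0.146 in lung (lowest -0.053), 0.0777 in cortex and 0.0222 in cerebellum. For differently numbered libraries the averages were -0.021, -0.011 and -0.0030. Same-numbered lung libraries, which were also of the same sex, were thus more alike on average than differently numbered ones. The main fit did not take the numbers to pair genotypes within a tissue, and the replicate block is the alternative that does. These correlations cannot show whether a cortex and a cerebellum library of the same number came from the same mouse. In cerebellum Cic-L-KO 1 gene passed without the count filter, Cd8a, at 22 counts over 8 libraries against 1 in WT. The 15 relations past the threshold became 2 without the 2 farthest libraries of each relation, and 9 to 20 without any 1 library, 9 being without Cic-L-KO replicate 8. Directions turned in Cic-S-KO lung for Prf1 (-0.20 without replicates 4 and 5) and Cd8a (0.13 in females), in Cic-L-KO lung for Tbx21 (-0.18 in females) and Ccl3 (-0.095 without replicate 5; 0.40 at most without any other), in Cic-L-KO cortex for Eomes (0.16 without WT replicate 7; lowest -1.72 without Cic-L-KO replicate 6), and for the Eomes difference between regions in Cic-L-KO (-0.040 with DESeq2, -0.044 with the replicate block). The cause was not tested. Counts over all genes, which give the background shares, moved by over 1.5 times as follows. Cic-L-KO lung went from 817 to 1285 with the block, 522 and 517 without WT replicates 5 and 6, 62 in males and 181 in females, and Cic-S-KO lung from 2624 to 387 in males and 481 in females. Cic-S-KO cortex went from 1108 to 732 without the count filter, 654 with only the compared genotypes, 627 with the block, 461 to 692 without WT replicate 1, 3, 6 or 8 or Cic-S-KO replicate 6 or 7, 33 in males and 444 in females, and Cic-L-KO cortex from 7338 to 4268 in females. Cic-S-KO cerebellum went from 1370 to 591 with the block, 883 and 907 without Cic-S-KO replicates 6 and 7, 3 in males and 2427 in females, and Cic-L-KO cerebellum from 3580 to 1676 in males and 1558 in females. Genes below 1 CPM rest on few counts per library, which limits what could be detected.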

Other observations

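In WT cerebellum the 4 female libraries read 48.4 to 54.6 CPM of Eomes and the 4 male libraries 16.9 to 30.5, without overlap. In Cic-S-KO cerebellum the ranges were 10.6 to 45.7 in 4 females and 12.0 to 29.8 in 3 males, and in Cic-L-KO 11.5 to 38.8 and 16.0 to 34.4. This split was noticed after the values were seen and was not tested. Within females, the Eomes log2 fold change in cerebellum was -0.95 in Cic-S-KO (edgeR, adjusted p = 0.23) and -0.79 in Cic-L-KO (edgeR, adjusted p = 0.364), against -0.14 (adjusted p = 0.997, edgeR) and -0.038 (adjusted p = 0.965, edgeR) within males.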
